A study of Mus musculus with 9 samples.

Results

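The genes described here are 35 genes of pyruvate oxidation and the citric acid cycle, out of 55536 genes in each deposited table, chosen by gene symbol from textbook membership. They comprise 11 cycle enzyme genes, 2 genes for NADP-dependent isocitrate dehydrogenases, 5 subunit genes of the pyruvate dehydrogenase complex, its 4 kinase genes and 3 phosphatase genes, 2 mitochondrial pyruvate carrier genes, 6 genes of the malate-aspartate shuttle and 2 malic enzyme genes. They were followed in muscle from male mice of the ICR stock, which is outbred, with 9 RNA sequencing libraries made from total RNA. In the aged GW8510 group (libraries 1, 3 and 4) the mice were 18 months old and received GW8510 at 2 mg/kg intraperitoneally each day for 14 days, dissolved in sodium carboxymethylcellulose. In the aged vehicle group (libraries 1, 3 and 4) they were 18 months old and received vehicle. In the young vehicle group (libraries 2, 3 and 4) they were 2 months old and received vehicle. GW8510 is a benzenesulfonamide, and the series title ties it to p21-activated kinases. The labels do not name the muscle or the hours between the last dose and collection, and whether each library comes from its own animal is not stated either, which means that p-values reflect spread among libraries that may be technical. No group holds young mice given GW8510.

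Muscle fibres draw on these genes to burn carbohydrate. Pyruvate from glycolysis enters the mitochondrial matrix through the carrier formed by MPC1 and MPC2, and the pyruvate dehydrogenase complex turns it into acetyl-CoA. The complex is switched off when PDK kinases phosphorylate it and switched on again by PDP phosphatases, which makes this step the gate between carbohydrate and fat as mitochondrial fuel. The cycle then oxidises acetyl-CoA and passes electrons to the respiratory chain, while the malate-aspartate shuttle moves reducing equivalents from the cytosol into the matrix.

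Total counts were 21718965 to 27437970 per library, of which the 35 genes took 0.966% to 1.30%. All 35 passed the filter on low counts that left 14384 genes for testing. The 9 markers of skeletal muscle summed to between 97747 and 150140 CPM in every library (CPM, counts brought to a common library total with trimmed mean of M values factors), and the 9 markers of slow fibres to 73.3 to 376 CPM. A pair of libraries stood apart for the genes described here. Aged GW8510 library 3 had the highest CPM of the 9 libraries for 20 of the 35 genes, and aged vehicle library 4 had the lowest for 19. Medians of the 35 genes and of the slow fibre and mitochondrial markers are also given without them below.

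Per transcript length, most of these genes were among the most abundant in muscle. On the deposited TPM scale, which corrects for transcript length and library total, averaged over the 9 libraries, 22 genes exceeded 100 TPM, 8 lay between 10 and 100 TPM, 2 between 1 and 10 TPM, and 3 at or below 1 TPM. The highest levels were those of Mdh2, mitochondrial malate dehydrogenase, at 697 TPM, and Mpc1, a pyruvate carrier subunit, at 695 TPM, which did not differ beyond their ranges over libraries (487 to 888 TPM and 552 to 821 TPM). The 3 lowest were Pdp2 at 0.724 TPM, Pdk3 at 0.460 TPM and Slc25a13 at 0.273 TPM. Within the cycle enzymes the lowest was Suclg2, which encodes the GTP-specific subunit of succinyl-CoA synthetase, at 27.42 TPM, while Sucla2, its ADP-specific counterpart, stood at 252 TPM. Idh2, the mitochondrial NADP-dependent isocitrate dehydrogenase, averaged 131 TPM and Idh1, the cytosolic enzyme, 8.07 TPM.

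**Figure D1:**
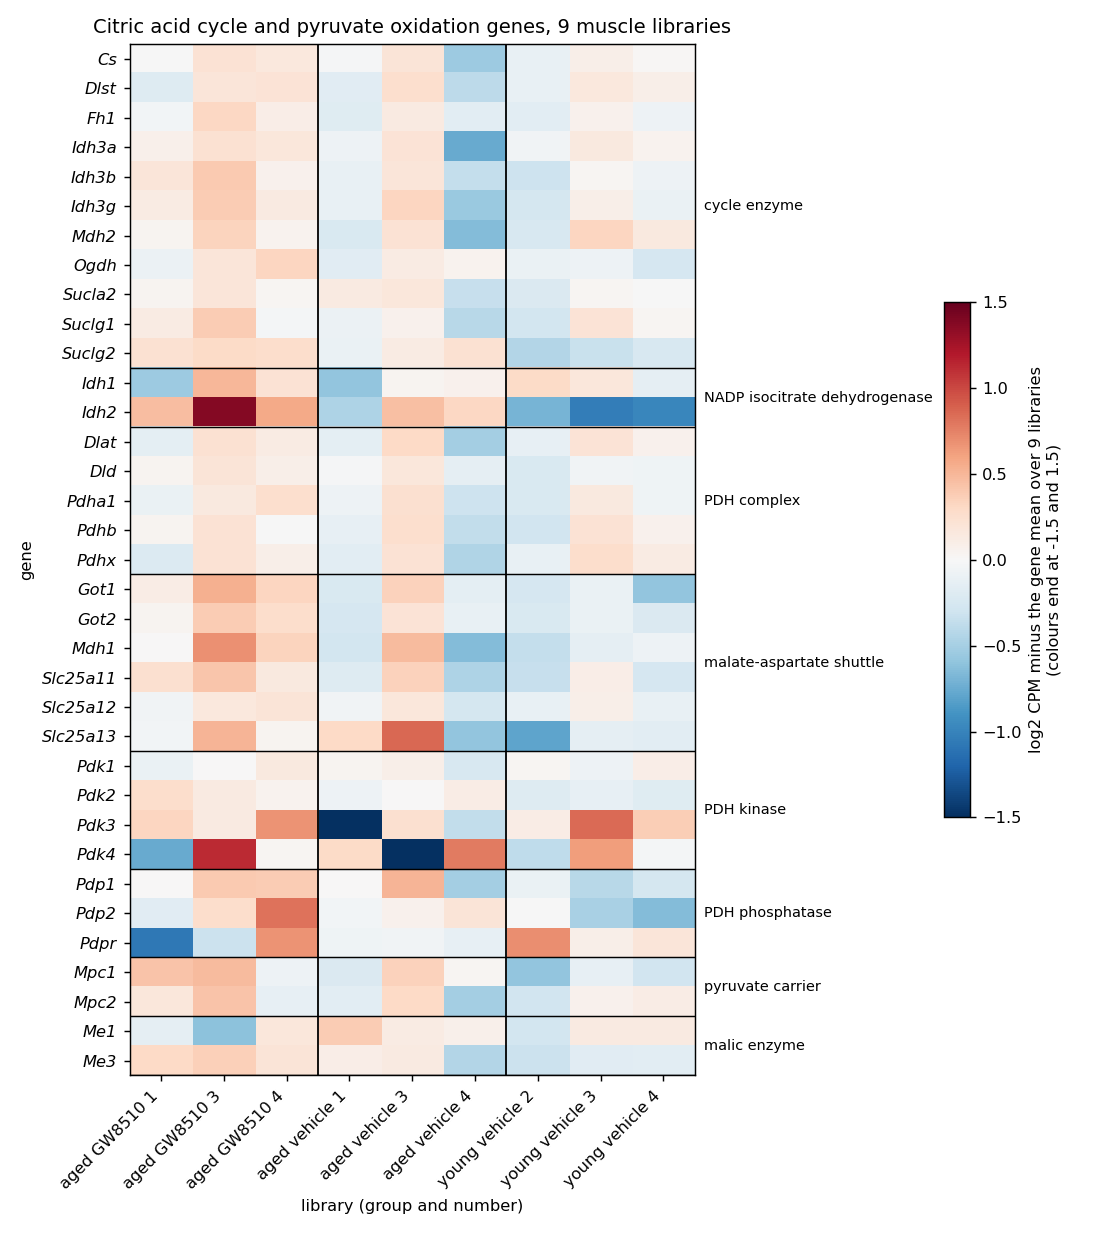
Level of each of the 35 genes (rows, grouped by role; PDH stands for pyruvate dehydrogenase) in each of 9 libraries (columns), as log2 CPM minus the gene's mean over the libraries. Aged GW8510 library 3 held the highest value of 20 genes and aged vehicle library 4 the lowest of 19, and the wide colours of Idh2, Pdk3, Pdk4 and Pdpr stand out from the pale rows of the pyruvate dehydrogenase subunits.

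Across the 3 comparisons 1 of the 35 genes was called, Idh2, in aged GW8510 against young vehicle muscle. A call means an adjusted p under 0.05 in edgeR's quasi-likelihood test with Benjamini-Hochberg adjustment over all 14384 genes. The groups of different comparisons share libraries, so the comparisons are not independent of each other.

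Between aged GW8510 and aged vehicle muscle none of the 35 genes was called, and neither was any other gene (0% of genes tested). The smallest edgeR adjusted p over all genes was 0.790, and DESeq2 called 8 genes, with none of the 35 among them. At an unadjusted p under 0.05, 1 of the 35 genes (Idh2) and 647 of all genes (4.5%) were left. The signs were lopsided: 33 of 35 log2 fold changes lay above 0, against 50.9% of all genes, with a median of 0.22 for the 35 and 0.01 for all genes. The exceptions were Me1 (-0.36) and Slc25a13 (-0.12). This lean was smaller without the 2 libraries that stood apart, which were picked on the levels of these same 35 genes. Leaving out a high aged GW8510 library and a low aged vehicle library lowers the lean by construction. The count above 0 was 27 of 35 with a median of 0.13 without aged vehicle library 4. Without aged GW8510 library 3 it was 32 of 35 with a median of 0.13. Without both it was 23 of 35 with a median of 0.05, where 54.2% of all genes lay above 0. The median rose to 0.35 without aged vehicle library 3 and to 0.28 without aged GW8510 library 1. In both of these fits 33 of 35 lay above 0. On the TPM scale (log2 of TPM plus 1) the median of all genes shifted by -0.10, 24 of 35 genes lay above 0 against 32.4% of all genes, and 31 of 35 lay above the median of all genes. In CPM the libraries of the groups did not overlap for 3 of 35 genes, all higher in aged GW8510 muscle (Idh2, Me3 and Suclg2), which is 8.57% of the 35 where 3.89% of all genes separated in that direction, 3.33% in the other and 7.22% in either. In TPM, a scale on which the count was taken after the data were seen, only Me3 of the 35 was still higher without overlap (2.04% of all genes) and Slc25a13 was lower without overlap (6.95% of all genes).

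Between aged GW8510 and young vehicle muscle 1 of 35 genes was called and it was higher, where 0.751% of all genes were called in either direction and 0.334% as higher. At an unadjusted p under 0.05, 8 of the 35 genes (22.9%) were left, against 16.7% of all genes. The log2 fold changes lay above 0 for 31 of 35 genes, with a median of 0.20, against 51.3% of all genes and a median of 0.01. They did for 28 of 35 with a median of 0.12 without aged GW8510 library 3, and also without both libraries that stood apart. They did for 25 of 35 with a median of 0.0994 without young vehicle library 2. Without aged GW8510 library 1 they did for 32 of 35 with a median of 0.25, and likewise without young vehicle library 3. In CPM the libraries did not overlap for 14 of 35 genes (40%), each of them higher in aged GW8510 muscle, while 12.9% of all genes separated in that direction. No gene of the 35 separated in the lower direction, against 12.8% of all genes. In TPM 4 of these 14 (Idh2, Suclg2, Got1 and Me3) were still higher without overlap, which is 11.4% of the 35 and lies beside 5.01% of all genes, and 1 gene (Dlat) was lower without overlap, beside 21.7% of all genes. The signs depended on the scale too: on log2 of TPM plus 1 the median of all genes shifted by -0.15, the median of the 35 was -0.01, and 16 of 35 lay above 0 but 26 of 35 above the median of all genes.

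Between aged vehicle and young vehicle muscle none of the 35 genes was called by edgeR, where 1.22% of all genes were called and 0.521% were called as higher, and DESeq2 called 1 of the 35, Idh2. At an unadjusted p under 0.05, 2 of 35 genes (Idh2 and Suclg2, 5.71%) were left, against 19.2% of all genes. The signs were balanced, with 20 of 35 above 0, against 51.1% of all genes, and a median of 0.01 both for the 35 and for all genes. In CPM the libraries did not overlap for 3 genes that were higher in aged vehicle muscle (Idh2, Suclg2 and Pdk2) and 1 that was lower (Pdpr), together 11.4% of the 35 and below the 26.2% of all genes. In TPM 3 were higher without overlap (Idh2, Suclg2 and Slc25a13; 7.05% of all genes) and 4 were lower (Suclg1, Pdhx, Pdk3 and Pdpr; 15.2% of all genes). The median moved with single libraries, being -0.11 when aged vehicle library 3 was left out and 0.13 when aged vehicle library 4 was.

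**Figure D2:**
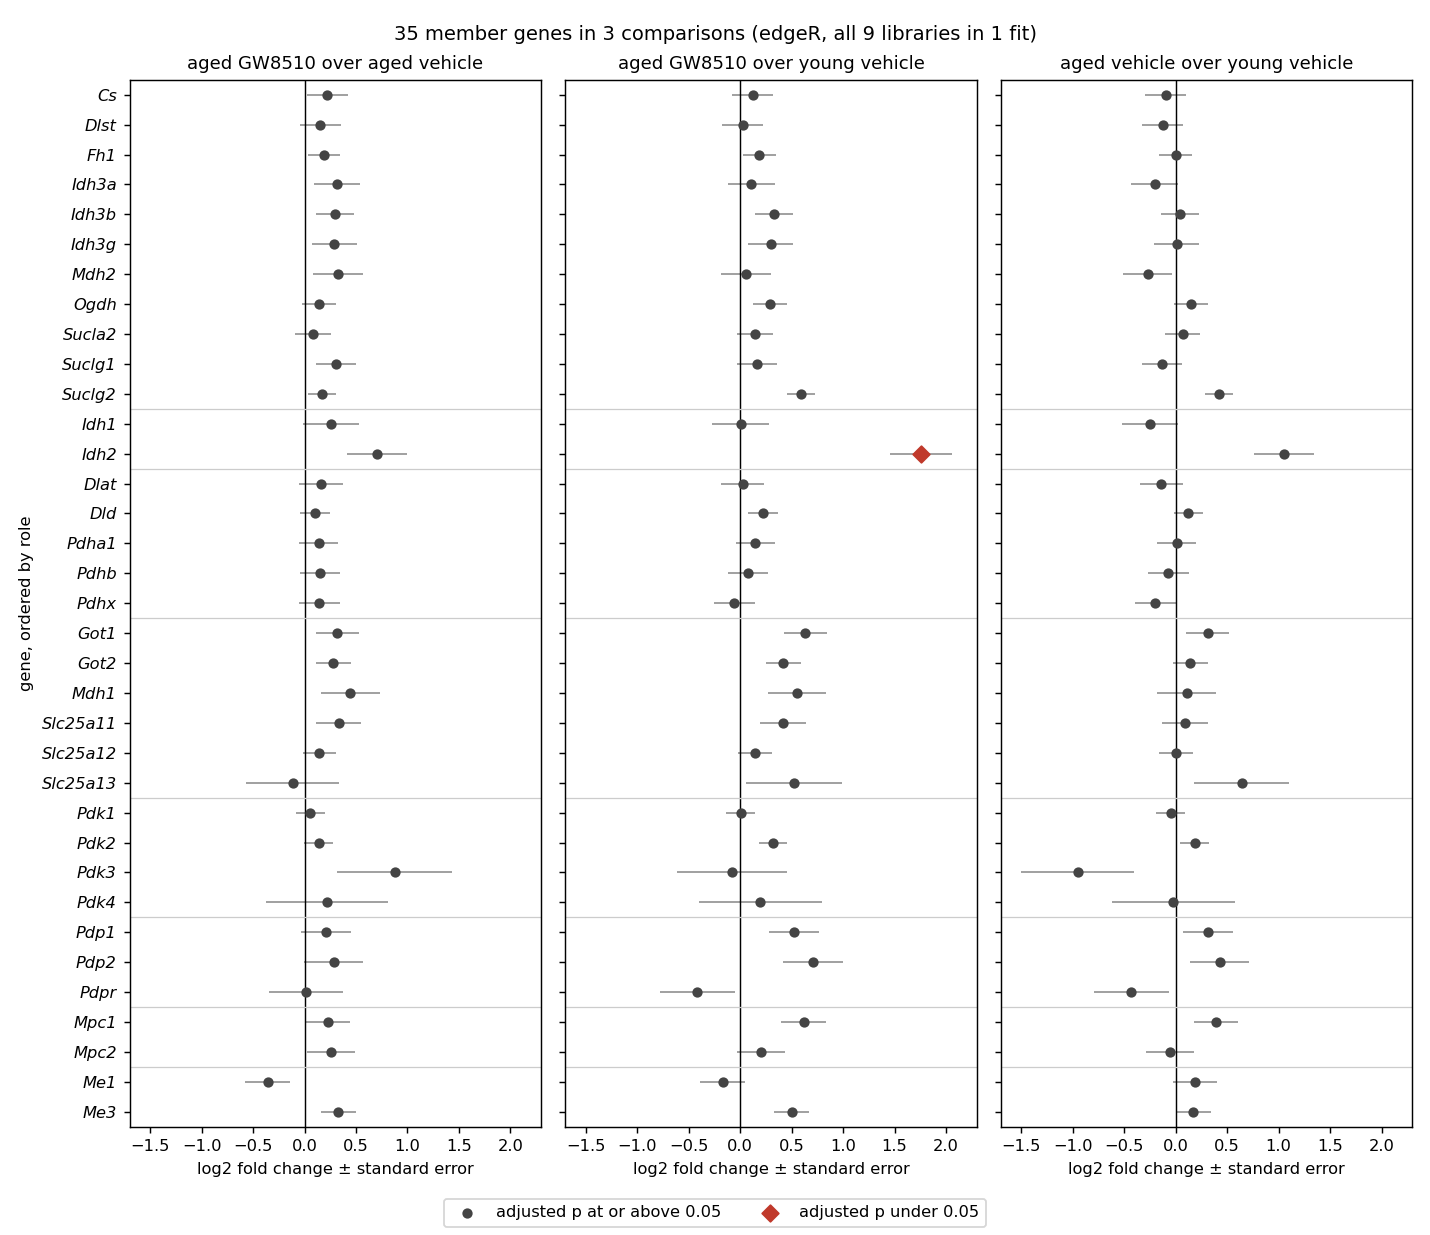
Log2 fold change with its standard error (edgeR, all 9 libraries in 1 fit) of each gene in the 3 comparisons, ordered by role. The single diamond marks Idh2 at 1.76 in aged GW8510 over young vehicle muscle, the 1 gene of 35 with an adjusted p under 0.05; in aged GW8510 over aged vehicle muscle 33 of 35 points lie right of 0, without a call.

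Idh2 had the smallest p of the 35 genes in each of the 3 comparisons. The gene (ENSMUSG00000030541) lies on chromosome 7 from 80094846 to 80115392, minus strand, in GENCODE M21 on GRCm38. The enzyme turns isocitrate into alpha-ketoglutarate in the matrix and makes NADPH, which feeds the glutathione and thioredoxin systems. It had 229.85, 433 and 249 CPM in aged GW8510 libraries 1, 3 and 4, against 122, 229.48 and 207 CPM in aged vehicle libraries 1, 3 and 4 and 103, 81.6 and 85.0 CPM in young vehicle libraries 2, 3 and 4. Every library from an aged group lay above every young vehicle library, and the aged GW8510 libraries lay above the aged vehicle libraries by a margin of less than 1 CPM between aged GW8510 library 1 and aged vehicle library 3. In TPM the 2 aged groups overlapped. Means were 304 ± 112 CPM for aged GW8510, 186 ± 56.8 CPM for aged vehicle and 89.9 ± 11.6 CPM for young vehicle muscle (SD, n = 3 each).

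Idh2 was 3.38-fold higher in aged GW8510 than in young vehicle muscle (log2 fold change 1.76, standard error 0.30, edgeR adjusted p = 0.0301). Each sample of the aged GW8510 group exceeded each young vehicle sample. The log2 fold change ranged from 1.41 to 1.92 over 9 fits that left out a library, and the call held in 4 of them. These were the fit without aged GW8510 library 4 (edgeR adjusted p = 0.0441) and those without aged vehicle library 1, 3 or 4. The aged vehicle libraries are not among the libraries compared here. The edgeR adjusted p was 0.0532 without aged GW8510 library 1, 0.09996 without aged GW8510 library 3, and 0.0900, 0.137 and 0.131 without young vehicle libraries 2, 3 and 4. Without both libraries that stood apart the log2 fold change was 1.41 with an edgeR adjusted p of 0.0354. In the authors' deposited table the log2 ratio was 1.76 with an adjusted p of 1.19e-10, and the gene was marked as significant.

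In aged vehicle over young vehicle muscle the Idh2 log2 fold change was 1.05 (standard error 0.29, 2.07-fold, edgeR adjusted p = 0.111), which missed the threshold. It passed with DESeq2 (adjusted p = 0.0129) and in edgeR with no filter on low counts (adjusted p = 0.0312), and the authors' deposited table marked it as significant, with a log2 ratio of 1.06 and an adjusted p of 0.00426. In aged GW8510 over aged vehicle muscle the log2 fold change was 0.71 (standard error 0.29, edgeR adjusted p = 0.934), and it was 0.36 without aged GW8510 library 3. The authors' deposited table gave 0.70 with an adjusted p of 0.998 and no mark.

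Its cytosolic counterpart Idh1, which makes NADPH outside the mitochondria, had 10.4, 21.4 and 17.6 CPM in aged GW8510, 10.002, 15.5 and 15.8 CPM in aged vehicle, and 18.5, 17.0 and 13.7 CPM in young vehicle muscle, with overlap between all groups. The ratio of Idh2 to Idh1 in TPM was accordingly 28.7, 27.6 and 19.7 in aged GW8510, 15.2, 19.5 and 18.1 in aged vehicle, and 7.69, 6.70 and 8.47 in young vehicle libraries. These ratios did not overlap between any of the 3 groups, although aged GW8510 library 4 (19.736) and aged vehicle library 3 (19.547) nearly met. The ratio of Idh2 to Idh3a, the catalytic subunit of the NAD-dependent enzyme that carries the cycle's own flux, ranged from 0.414 to 0.747 in aged GW8510, 0.250 to 0.659 in aged vehicle and 0.150 to 0.218 in young vehicle libraries. Both ratios use the values that made Idh2 stand out, and neither was tested.

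**Figure D3:**
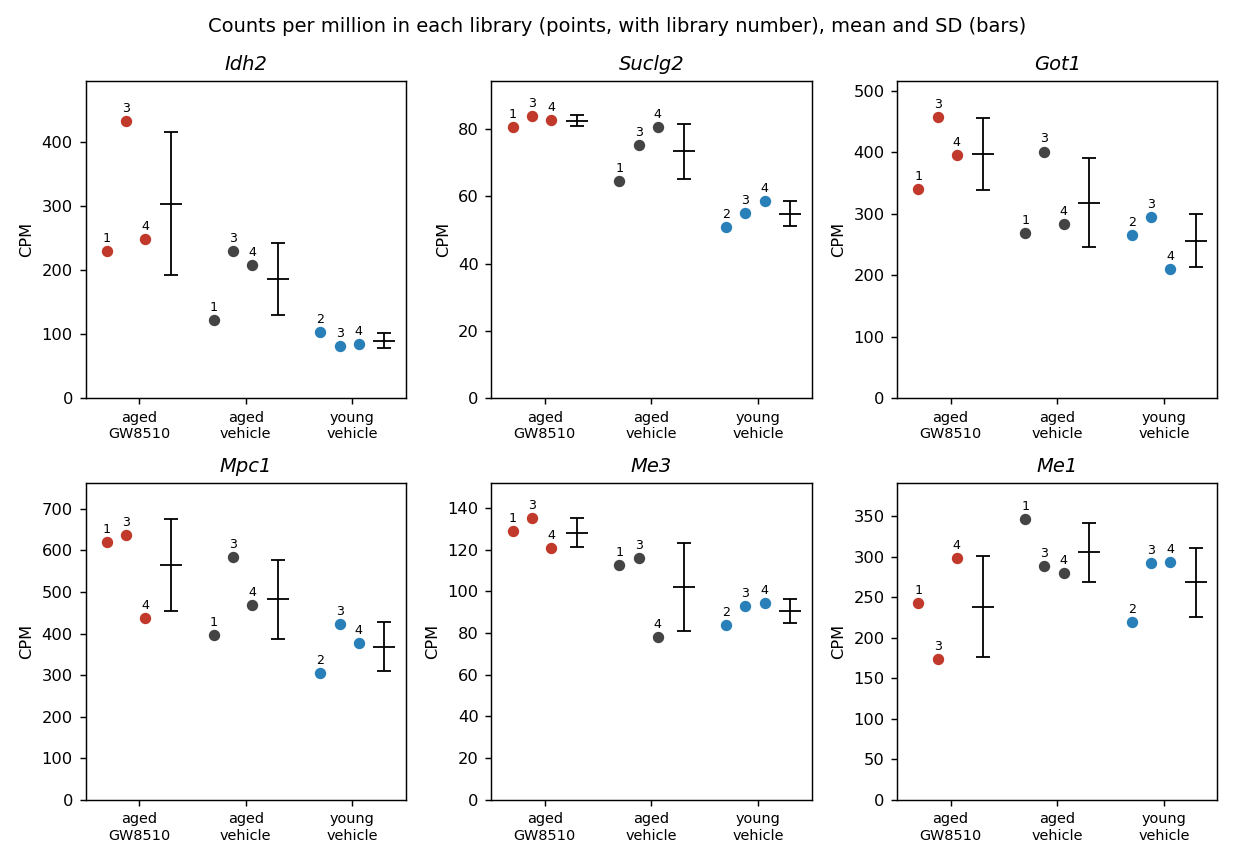
CPM of 6 genes in each library (points with the library's number) with the group mean and SD (bars, n = 3), in aged GW8510, aged vehicle and young vehicle muscle. Idh2 and Suclg2 lie lowest in every young vehicle library, and the aged GW8510 and aged vehicle points of Idh2 meet at about 229 CPM.

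Promoter windows are shown for 3 genes: Idh2, the called gene, Suclg2, the gene with the next smallest p in the comparisons with young vehicle muscle, and Pdk4, the gene with the widest range among those of at least 1 TPM. Each is the 250 bases before the RefSeq start (build GRCm38.p6, minus strand for all 3), read 5′ to 3′ on the gene's strand. They are chr7:80115351-80115600 for Idh2, chr6:95718847-95719096 for Suclg2 and chr6:5496279-5496528 for Pdk4. Capitals mark every match, on either strand, to the CCAAT box (CCAAT), the GC box (GGGCGG), the core motif of the oestrogen-related receptors (AAGGTCA) and the forkhead site (GTAAACA).
Idh2: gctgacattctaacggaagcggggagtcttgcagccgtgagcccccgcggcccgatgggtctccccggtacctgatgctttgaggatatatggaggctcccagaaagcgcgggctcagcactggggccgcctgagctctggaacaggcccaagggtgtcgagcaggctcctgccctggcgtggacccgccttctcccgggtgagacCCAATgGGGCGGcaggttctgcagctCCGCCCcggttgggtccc
Suclg2: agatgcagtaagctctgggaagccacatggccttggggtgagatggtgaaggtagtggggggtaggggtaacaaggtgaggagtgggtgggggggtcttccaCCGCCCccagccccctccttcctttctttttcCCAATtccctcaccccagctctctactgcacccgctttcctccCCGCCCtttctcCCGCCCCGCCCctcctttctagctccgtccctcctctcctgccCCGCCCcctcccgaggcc
Pdk4: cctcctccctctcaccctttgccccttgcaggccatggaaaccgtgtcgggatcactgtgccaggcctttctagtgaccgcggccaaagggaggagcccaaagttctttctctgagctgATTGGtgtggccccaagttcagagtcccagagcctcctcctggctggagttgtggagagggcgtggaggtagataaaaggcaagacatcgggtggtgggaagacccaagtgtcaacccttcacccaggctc
The Idh2 window held 1 CCAAT box beside a GC box and another GC box nearer the start, and 67.2% of its bases were G or C. The Suclg2 window held 5 GC boxes, a pair of which share a base, and 1 CCAAT box. The Pdk4 window held 1 CCAAT box and no GC box. None of the 3 held AAGGTCA or GTAAACA in these 250 bases.

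RefSeq gave such a window for 33 of the 35 genes. A CCAAT box was found in 20 of the 33 windows (60.6%) and in 37.5% of the windows of all 27025 genes, and a GC box in 21 (63.6%) and in 35.4% of all. AAGGTCA was found in 1 (Got1, 3.03%) and in 4.7% of all, and GTAAACA in none and in 3.54% of all. A match is a run of letters and no evidence of binding.

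Among the 11 cycle enzyme genes none was called in any comparison, and Suclg2 (ENSMUSG00000061838, chromosome 6 from 95473009 to 95718800, minus strand) had the smallest adjusted p among them in both comparisons with young vehicle muscle. Its product joins the SUCLG1 subunit to form the succinyl-CoA synthetase that makes GTP. It had 80.72, 83.9 and 82.6 CPM in aged GW8510 libraries, against 64.4, 75.1 and 80.64 CPM in aged vehicle libraries and 51.0, 54.9 and 58.4 CPM in young vehicle libraries. All 6 aged libraries lay above all 3 young ones, and aged GW8510 lay above aged vehicle by less than 1 CPM at the closest pair and overlapped it in TPM. Against young vehicle muscle the log2 fold change of Suclg2 was 0.59 in aged GW8510 (standard error 0.13, edgeR adjusted p = 0.0725) and 0.42 in aged vehicle (standard error 0.13, edgeR adjusted p = 0.148). The first passed with DESeq2 (adjusted p = 0.00522), in edgeR on the 6 libraries compared alone (adjusted p = 0.0406) and without aged vehicle library 4 (adjusted p = 0.0308), which is not among the libraries compared. Over all genes these fits called 820, 469 and 594 genes, against 108 in the main fit. The authors' deposited table gave a log2 ratio of 0.59 with an adjusted p of 0.00267 for it and set no mark. Between aged GW8510 and aged vehicle muscle the log2 fold change of Suclg2 was 0.17 (standard error 0.13, edgeR adjusted p = 0.934).

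Sucla2, the ADP-specific counterpart that prevails in muscle, had log2 fold changes of 0.08, 0.15 and 0.07 in aged GW8510 over aged vehicle, aged GW8510 over young vehicle and aged vehicle over young vehicle muscle. In TPM the ratio of Suclg2 to Sucla2 was 0.120 to 0.138 in aged GW8510, 0.0944 to 0.160 in aged vehicle and 0.0767 to 0.0898 in young vehicle libraries, so the aged libraries lay above the young ones and the 2 aged groups overlapped.

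The other 9 cycle enzyme genes lay within narrow ranges. Their log2 fold changes were between 0.14 and 0.33 in aged GW8510 over aged vehicle, between 0.03 and 0.33 in aged GW8510 over young vehicle, and between -0.27 and 0.15 in aged vehicle over young vehicle muscle. Citrate synthase, Cs, which opens the cycle and is often used to gauge mitochondrial content, had 774, 906 and 870.2 CPM in aged GW8510, 767, 889 and 535 CPM in aged vehicle libraries and 719, 830.1 and 791 CPM in young vehicle libraries. The 3 genes of NAD-dependent isocitrate dehydrogenase gave like values in aged GW8510 over aged vehicle muscle, with log2 fold changes of 0.31 (Idh3a), 0.30 (Idh3b) and 0.29 (Idh3g), and without aged vehicle library 4 these were 0.08, 0.17 and 0.09. All 11 cycle enzymes lay above 0 in that comparison, and so did 8 of 11 without both libraries that stood apart. On log2 of TPM plus 1, 9 of 11 lay above 0 and 11 of 11 above the median of all genes. Ogdh and Dlst, which build alpha-ketoglutarate dehydrogenase, Fh1, fumarase, Mdh2 and Suclg1 gave edgeR adjusted p values of 0.934 to 0.955 there.

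The 5 subunit genes of the pyruvate dehydrogenase complex lay in narrow ranges, the highest library holding 1.34 to 1.75 times the CPM of the lowest, and none was called. Pdha1 and Pdhb, which form the decarboxylating enzyme, had 617, 728 and 785 CPM and 293, 330.5 and 284 CPM in aged GW8510 libraries, 626, 777 and 533 CPM and 261, 337 and 220.1 CPM in aged vehicle libraries, and 564, 729 and 630.0 CPM and 233, 330.1 and 297 CPM in young vehicle libraries. Groups overlapped in each comparison for both. Dlat, the acetyltransferase core, had 180.1, 233 and 217 CPM in aged GW8510, 179, 244 and 139 CPM in aged vehicle libraries and 183, 228 and 209 CPM in young vehicle libraries. Pdhx, which binds the last enzyme to that core, had 74.998, 100.1 and 91.3 CPM in aged GW8510, 77.5, 100.4 and 63.2 CPM in aged vehicle libraries and 80.0, 103 and 93.4 CPM in young vehicle libraries. In CPM the groups overlapped for both genes, and aged vehicle library 4 was lowest for both. In TPM Dlat was lower without overlap in aged GW8510 than in young vehicle muscle (21.7% of all genes were). Pdhx was lower without overlap in aged vehicle than in young vehicle muscle in TPM (15.2% of all genes were), and its lowest library was aged GW8510 library 1. Dld, the dihydrolipoamide dehydrogenase that alpha-ketoglutarate dehydrogenase also uses, had 260.0, 289 and 268 CPM in aged GW8510, 248, 285 and 229 CPM in aged vehicle libraries and 216, 243 and 241 CPM in young vehicle libraries. Its aged GW8510 libraries all exceeded its young vehicle libraries in CPM but overlapped them in TPM.

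The log2 fold changes of these 5 genes were 0.10 to 0.16 in aged GW8510 over aged vehicle, -0.06 to 0.22 in aged GW8510 over young vehicle, and -0.20 to 0.12 in aged vehicle over young vehicle muscle, with standard errors of 0.14 to 0.21. The smallest edgeR adjusted p was 0.469, for Dld in aged GW8510 over young vehicle muscle. In aged GW8510 over aged vehicle muscle all 5 lay above 0, but 1 of 5 did without both libraries that stood apart. On log2 of TPM plus 1, 2 of 5 lay above 0 and 5 of 5 above the median of all genes.

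The 4 kinase genes were expressed at very different levels, and their makeup was set by Pdk2 and Pdk4. In TPM, Pdk2 made up 62.6% to 88.2% of the summed kinase level, Pdk4 7.94% to 35.3%, Pdk1 2.00% to 3.73%, and Pdk3 at most 0.229%. Pdk4 (ENSMUSG00000019577, chromosome 6 from 5483351 to 5496309, minus strand), which fasting and fatty acids raise in muscle and which spares carbohydrate, had the widest range of the genes of at least 1 TPM, with 112, 408 and 193 CPM in aged GW8510, 230.1, 59.0 and 322 CPM in aged vehicle libraries and 145, 292 and 184 CPM in young vehicle libraries. The highest library held 6.91 times the lowest, and the groups overlapped in each comparison. Its group means were 237 ± 153 CPM for aged GW8510, 204 ± 134 CPM for aged vehicle and 207 ± 76.2 CPM for young vehicle muscle (SD, n = 3 each).

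No comparison of Pdk4 passed the threshold, and its sign turned with single libraries. The log2 fold change in aged GW8510 over aged vehicle muscle was 0.22 (standard error 0.60, edgeR adjusted p = 0.982), and it was -0.42 without aged GW8510 library 3 but 0.70 without aged vehicle library 4. That last library, the aged vehicle library with the most Pdk4, also held 1536 CPM of Fbxo32 and 833 CPM of Trim63, ubiquitin ligase genes of the FOXO programme, where the other 8 libraries held 213 to 340 CPM and 143 to 233 CPM. Aged GW8510 library 3, which had the most Pdk4 of all 9 libraries in CPM (408 CPM), held 281 CPM of Fbxo32 and 191 CPM of Trim63. In TPM the most Pdk4 was in aged vehicle library 4, at 160 TPM against 114 TPM in aged GW8510 library 3. Both ubiquitin ligase genes were picked from a list after their values were seen, and their part in the Pdk4 spread was not tested.

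Pdk2, the most abundant kinase gene, had 542, 497 and 469.8 CPM in aged GW8510, 429, 454 and 490.4 CPM in aged vehicle libraries and 397, 415 and 398 CPM in young vehicle libraries. All aged libraries lay above all young ones, and the 2 aged groups overlapped. The log2 fold change of Pdk2 was 0.32 in aged GW8510 over young vehicle (standard error 0.14, edgeR adjusted p = 0.282), 0.18 in aged vehicle over young vehicle (edgeR adjusted p = 0.485) and 0.14 in aged GW8510 over aged vehicle muscle (edgeR adjusted p = 0.942). On log2 of TPM plus 1 these were 0.08, 0.11 and -0.03, before any allowance for the shifted median of all genes, and the aged GW8510 and aged vehicle libraries both overlapped the young vehicle libraries in TPM.

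Pdk1, which hypoxia raises in many cells, had 42.2, 45.5 and 50.1 CPM in aged GW8510, 46.6, 47.9 and 38.2 CPM in aged vehicle libraries and 45.9, 42.8 and 48.5 CPM in young vehicle libraries, and its highest library held 1.31 times its lowest, the narrowest range of the 35 genes. Pdk3 was near the floor of detection, with 0.908, 0.797 and 1.16 CPM in aged GW8510, 0.145, 0.859 and 0.563 CPM in aged vehicle libraries and 0.787, 1.31 and 0.936 CPM in young vehicle libraries, where 3 counts equal 0.103 to 0.136 CPM. In CPM its groups overlapped in each comparison. Its largest log2 fold change, -0.95 in aged vehicle over young vehicle muscle, had a standard error of 0.55 and an edgeR adjusted p of 0.366. In TPM it was lower without overlap in that comparison (15.2% of all genes were).

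**Figure D4:**
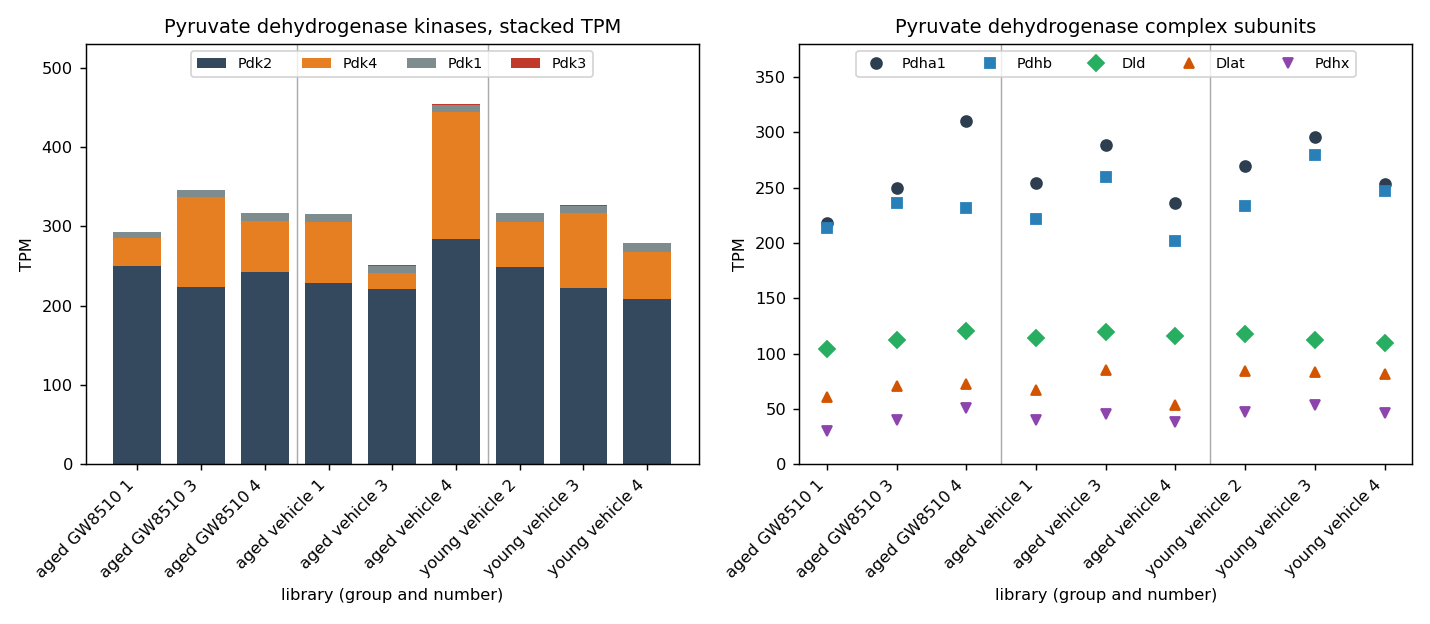
TPM per library of the 4 pyruvate dehydrogenase kinase genes (stacked bars, left) and of the 5 subunit genes of the complex (points, right), in aged GW8510, aged vehicle and young vehicle muscle. Pdk2 forms the larger part of every bar and Pdk4 varies from 19.9 to 160.4 TPM, while the subunits keep the order Pdha1, Pdhb, Dld, Dlat, Pdhx in every library.

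Of the phosphatase genes, Pdp1, the calcium-stimulated catalytic subunit of muscle, made up 97.8% to 99.0% of the TPM of the 2 catalytic subunits. Pdp1 lay between 131 and 172 CPM in aged GW8510, between 91.6 and 187 CPM in aged vehicle and between 97.7 and 122 CPM in young vehicle libraries. Its aged GW8510 libraries exceeded all young vehicle libraries in CPM but overlapped them in TPM. The log2 fold change of Pdp1 between these groups was 0.53 (standard error 0.24, edgeR adjusted p = 0.314). For it the authors' deposited table gave an adjusted p of 0.0374 and no mark. Pdp2, the other catalytic subunit, had 2.34 to 6.46 CPM over the 9 libraries and no separated groups. Pdpr, the regulatory subunit, lay between 29.3 and 98.6 CPM in aged GW8510, 56.6 and 59.8 CPM in aged vehicle, and 65.8 and 100.4 CPM in young vehicle libraries, and aged vehicle lay below young vehicle with no overlap (log2 fold change -0.43, standard error 0.36, edgeR adjusted p = 0.536). Pdpr overlaps an antisense gene, 9430091E24Rik, that averaged 2470 counts, and without a stated strand setting the reads of the 2 cannot be told apart.

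Neither pyruvate carrier gene was called in any comparison. The authors' deposited table gave Mpc1 an adjusted p of 0.0347 and no mark in aged GW8510 over young vehicle muscle. Mpc1 had 619, 637 and 436 CPM in aged GW8510, 395, 584 and 469.7 CPM in aged vehicle libraries and 305, 422 and 377 CPM in young vehicle libraries. In CPM aged GW8510 lay above young vehicle with no overlap and overlapped aged vehicle. The log2 fold change of Mpc1 was 0.62 in aged GW8510 over young vehicle (standard error 0.22, edgeR adjusted p = 0.188), 0.39 in aged vehicle over young vehicle (standard error 0.22, edgeR adjusted p = 0.344) and 0.22 in aged GW8510 over aged vehicle muscle (standard error 0.22, edgeR adjusted p = 0.942). Mpc2, its partner in the carrier, gave 0.20, -0.06 and 0.26 for the same comparisons, and its groups overlapped in all of them. In TPM, Mpc1 stood at 2.34 to 2.70 times Mpc2 in aged GW8510, 2.18 to 3.26 times in aged vehicle and 1.71 to 1.99 times in young vehicle libraries, a ratio that was looked at after the values were seen and was not tested.

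Me3, the mitochondrial NADP-dependent malic enzyme that turns malate into pyruvate, had 129, 135 and 121 CPM in aged GW8510, against 113, 116 and 77.9 CPM in aged vehicle libraries and 84.1, 93.2 and 94.5 CPM in young vehicle libraries. Aged GW8510 lay above both other groups with no overlap. The log2 fold change was 0.50 in aged GW8510 over young vehicle (standard error 0.17, edgeR adjusted p = 0.175, and 0.0481 without aged vehicle library 4) and 0.33 in aged GW8510 over aged vehicle muscle (standard error 0.17, edgeR adjusted p = 0.934, and 0.16 on the log2 scale without aged vehicle library 4). That library is not among those compared in aged GW8510 over young vehicle muscle, where 594 of all genes were called without it, against 108 with it. Me1, the cytosolic malic enzyme that supplies NADPH for fat synthesis, lay on the other side of 0 in aged GW8510 over aged vehicle muscle, with 243, 174 and 299 CPM in aged GW8510, 347, 289 and 280.1 CPM in aged vehicle libraries and 219, 293 and 293 CPM in young vehicle libraries. The groups overlapped, and the log2 fold change was -0.36 (standard error 0.22, edgeR adjusted p = 0.934).

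Of the 6 genes of the malate-aspartate shuttle, 5 had aged GW8510 libraries that all exceeded the young vehicle libraries in CPM (12.9% of all genes did): Got1, Got2, Mdh1, Slc25a11 and Slc25a13. In TPM 1 of the 6 did, Got1 (5.01% of all genes). None was called. Got1, the cytosolic aspartate aminotransferase, had 339.6, 457 and 395 CPM in aged GW8510, 269, 401 and 284 CPM in aged vehicle libraries and 265, 294 and 209.7 CPM in young vehicle libraries. Its log2 fold change was 0.63 in aged GW8510 over young vehicle (standard error 0.21, edgeR adjusted p = 0.169), 0.32 in aged GW8510 over aged vehicle (standard error 0.21, edgeR adjusted p = 0.934) and 0.31 in aged vehicle over young vehicle muscle (standard error 0.21, edgeR adjusted p = 0.433). The authors' deposited table gave Got1 and Me3 an adjusted p of 0.0148 each in aged GW8510 over young vehicle muscle, and neither was marked.

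The other shuttle genes gave log2 fold changes in aged GW8510 over young vehicle muscle of 0.42 for Got2, the mitochondrial aminotransferase, 0.55 for Mdh1, the cytosolic malate dehydrogenase, and 0.42 for Slc25a11, the oxoglutarate carrier. Slc25a12, the aspartate-glutamate carrier of muscle, gave 0.15 and overlapped between all groups. Slc25a13, the carrier form typical of liver, gave 0.53 at 0.376 to 1.19 CPM over the 9 libraries, close to the floor. Its separation in CPM was narrow, with 0.636 CPM in aged GW8510 library 1 and 0.592 CPM in young vehicle library 3. In those libraries 3 counts equal 0.136 and 0.127 CPM. Slc25a11 overlaps Rnf167 on the other strand, and strand use in counting is not given in the sources used here, so a part of its reads could belong to that gene. In aged vehicle over young vehicle muscle the 6 genes ranged from 0.00 to 0.64, with overlap for all of them in CPM. On log2 of TPM plus 1 the number above 0 was 3 of 6 there and 5 of 6 in aged GW8510 over young vehicle muscle, and 5 of 6 and 6 of 6 lay above the median of all genes.

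Markers of fibre type, of mitochondria and of other cell types also differed between libraries. The 9 slow fibre markers summed to 105, 376 and 106 CPM in aged GW8510, 94.9, 181 and 73.3 CPM in aged vehicle libraries and 95.3, 103 and 138 CPM in young vehicle libraries, and none was at 0 in any library. Aged GW8510 library 3, highest for 20 of the 35 genes, held 119 CPM of Myl3, the slow myosin light chain, where the other 8 libraries held 0.260 to 22.8 CPM. Among the slow fibre markers 9 of 9 lay above 0 in aged GW8510 over aged vehicle muscle (median log2 fold change 0.67), 8 of 9 in aged GW8510 over young vehicle (1.46) and 7 of 9 in aged vehicle over young vehicle muscle (0.60), and none was called. Without both libraries that stood apart the counts were 1 of 9 (median -0.87), 6 of 9 (0.20) and 7 of 9 (0.98). The slow fibre markers thus changed sides in aged GW8510 over aged vehicle muscle, where the libraries left out held their highest and lowest sums. The 14 markers of mitochondrial content, which include porins, import receptors and respiratory chain subunits, gave 13 of 14 above 0 with a median of 0.23 in aged GW8510 over aged vehicle, 13 of 14 with 0.18 in aged GW8510 over young vehicle, and 7 of 14 with 0.01 in aged vehicle over young vehicle muscle, with no call. Those medians lie beside 0.22, 0.20 and 0.01 for the 35 genes. Without both libraries they were 0.05, 0.13 and 0.11 for the mitochondrial markers and 0.05, 0.12 and 0.13 for the 35 genes. The 8 fibroblast markers summed to 287, 346 and 613 CPM in aged GW8510, 409.5, 556 and 141 CPM in aged vehicle libraries and 1917, 2677 and 1238 CPM in young vehicle libraries, so both aged groups lay below the young one. In aged vehicle over young vehicle muscle 0 of 8 lay above 0 and 1 was called, Cd34 (log2 fold change -1.06, edgeR adjusted p = 0.0470), which endothelial cells also express; in aged GW8510 over young vehicle muscle 1 of 8 lay above 0 and none was called. Aged vehicle library 4 held the lowest sum of the 9 libraries for the fibroblast, Schwann cell (20.4 CPM), smooth muscle (131 CPM), endothelial (214 CPM) and adipocyte (159 CPM) markers as well as for the mitochondrial markers (7666 CPM). Its adipocyte sum was mostly Fabp4 (135 CPM). By the median of log2 CPM minus each gene's mean, its adipocyte markers (-0.53) were not the lowest. Aged GW8510 library 3 stood at -1.89 and aged vehicle library 3 at -1.15. The part of fibre type, of mitochondrial content or of other cell types in the results for the 35 genes was not tested, and in bulk tissue fewer cells of a type and less RNA per cell cannot be told apart.

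**Figure D5:**
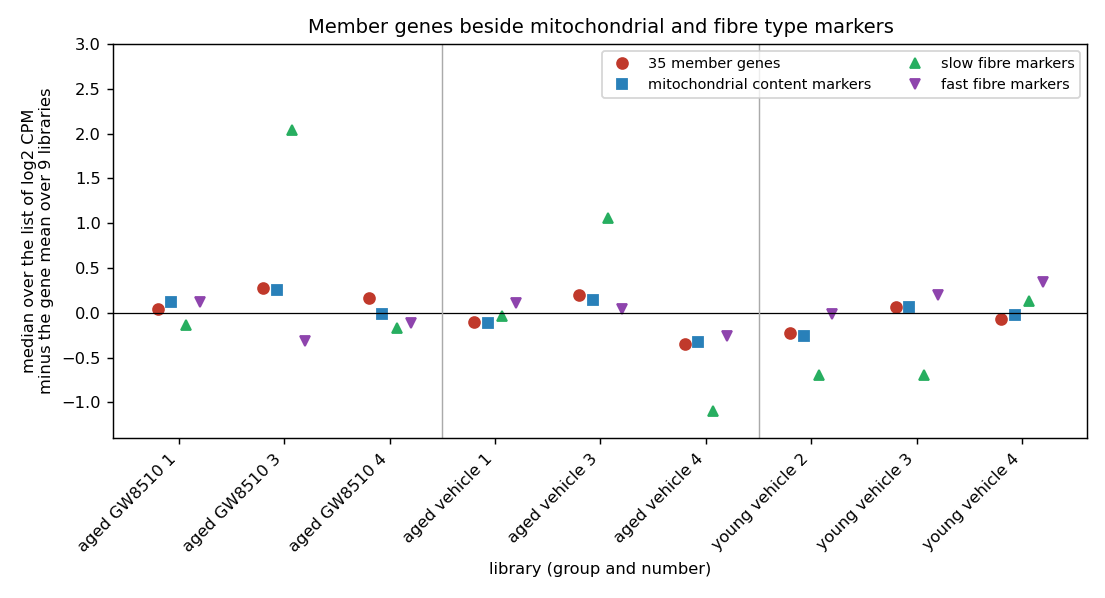
Median over each gene list of log2 CPM minus the gene's mean over 9 libraries, for the 35 genes, 14 mitochondrial content markers, 9 slow fibre markers and 11 fast fibre markers. The 35 genes and the mitochondrial markers are highest in aged GW8510 library 3 (0.28 and 0.25) and lowest in aged vehicle library 4 (-0.35 and -0.32), and the slow fibre markers stand at 2.04 and -1.09 in those libraries.

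Other genes of the cycle and of pyruvate use, from a list of 27 of which 26 were tested, held no call in any comparison. They lay above 0 for 21 of 26 genes in aged GW8510 over aged vehicle (median 0.25), 20 of 26 in aged GW8510 over young vehicle (median 0.23) and 14 of 26 in aged vehicle over young vehicle muscle (median 0.01). Without both libraries that stood apart the counts were 20, 20 and 15 of 26, with medians of 0.10, 0.16 and 0.14. The 17 regulators and targets of the PPAR and FOXO factors, which govern Pdk4 among others, also held no call, with 8 of 17 above 0 in aged GW8510 over aged vehicle, 13 of 17 in aged GW8510 over young vehicle and 11 of 17 in aged vehicle over young vehicle muscle, and 8, 12 and 9 of 17 without both libraries.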

How the data were processed

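RNA of 9 muscle libraries in 3 groups of 3 was analysed from 3 tables of 55536 genes that the authors deposited, 1 for each pair of groups. Expected counts per gene, not normalized, come as the authors deposited them, and 91.4% of the values are whole. The TPM values per library, the log2 ratios and the p-values with adjusted p-values and a significance mark are also the authors' own, as deposited. The submitters' processing notes name GRCm38, CASAVA, HISAT2, StringTie, RSEM, DESeq2 and edgeR without roles, so strand use, gene lengths and the annotation behind the counts are not given in the sources used here. Tables that share a library gave it the same counts (largest difference 0). GENCODE M21 holds all 55536 gene IDs. Reads of the processed pseudogenes Got2-ps1 and Mpc1-ps came to 0.0031% and 0.0059% of those of Got2 and Mpc1.

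Counts were rounded, genes were kept by filterByExpr (14384 genes; 29661 had no count in any library), and edgeR 4.0.16 in R 4.3.3 fitted all 9 libraries with 1 mean per group and TMM factors (quasi-likelihood F test, two-sided, Benjamini-Hochberg adjustment over all genes tested in a comparison, threshold 0.05). The common dispersion was 0.0812 with 6 residual degrees of freedom. The size of a log2 fold change divided by the root of its F statistic gave the standard error. Levels in CPM use TMM-adjusted library sizes. A floor of 3 counts covers counting error only.

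Alternatives were DESeq2 1.42.0, limma 3.58.1 with voom and on log2 of TPM plus 1 or 0.1, other scalings, no filter, the 6 libraries compared alone, the library number as a block, and each library left out in turn. Leaving out aged GW8510 library 3 with aged vehicle library 4, for the 35 genes and the marker lists, and counting overlap in TPM were added after the data were seen. The 35 genes, the gene lists and the rule below were chosen with earlier results of these data known. The rule for naming names all 35 genes and gives every library for called genes, the 3 smallest p-values per comparison, the widest TPM range, the kinases and the subunits of the complex. Library values of Cs and Idh1, and the ratios between genes, were chosen after their values were seen.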

Additional observations from a re-analysis of the deposited data

How the results depend on the processing

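Over 19 alternatives in 3 comparisons 1874 of 1995 log2 fold changes of the 35 genes counted as the same. For an uncalled gene this meant no call and a change smaller than its standard error, its spread here. For Idh2 where it was called, this meant only the same sign and a call. Of the rest, 109 moved, 6 passed newly and 6 lost their call (all 6 Idh2 in aged GW8510 over young vehicle muscle). Adding the pseudogene counts to Got2 and Mpc1 gave 6 more values, all within their spread. In TPM the genes of the 35 whose libraries did not overlap numbered 7 in aged vehicle over young vehicle, 2 in aged GW8510 over aged vehicle and 5 in aged GW8510 over young vehicle muscle, against 4, 3 and 14 in CPM. The number of the 35 genes called in aged vehicle over young vehicle muscle was 1 with DESeq2 and 1 with no filter on low counts. In aged GW8510 over young vehicle muscle it was 2 with DESeq2, 2 on the 6 libraries compared alone, 0 with the replicate block, and 0 to 3 when a library was left out (3 without aged vehicle library 4). The median of the 35 genes in that comparison was -0.0131 on log2 of TPM plus 1 and -0.0132 on log2 of TPM plus 0.1, where the median of all genes shifted by -0.15 and -0.21.

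Counts over all genes moved more. In aged vehicle over young vehicle muscle they were 946 with DESeq2, 699 with no filter, 50 on 6 libraries, 5 with the replicate block and 19 to 148 with a library left out, against 175. In aged GW8510 over aged vehicle muscle they were 8 with DESeq2, 5 with no filter and 0 to 2 with a library left out, against 0. In aged GW8510 over young vehicle muscle they were 820 with DESeq2, 553 with no filter, 469 on 6 libraries, 8 with the replicate block, 248 and 180 on log2 of TPM plus 1 and plus 0.1, 228 without aged GW8510 library 3 and aged vehicle library 4, and 25 to 594 with a library left out, against 108. Some of these fits have fewer libraries, and the cause of the differences was not tested.

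The labels do not say what a shared library number means. For libraries that share one, correlations of their deviations from the group means were -0.21 to 0.02 in aged GW8510 and aged vehicle muscle, 0.07 to 0.14 in aged vehicle and young vehicle, and -0.20 to -0.00 in aged GW8510 and young vehicle muscle. These come from 3, 2 and 2 pairs and cannot tell whether the numbers mark a pairing. With the block the Idh2 log2 fold change in aged GW8510 over young vehicle muscle was 2.04 with an edgeR adjusted p of 0.0718. Groups of 3 libraries and few counts for Pdk3 and Slc25a13 (means under 1 CPM) limit what could be detected.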
